A study of Mus musculus with 4 samples.

Results

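The MHC class II genes followed here were 7 genes of the mouse class II presentation pathway, the chain genes *H2-Ab1*, *H2-Aa* and *H2-Eb1*, the chaperone genes *Cd74*, *H2-DMa* and *H2-DMb1*, and the regulator *Ciita*. They were chosen by name, with their values in these data already known, so those values are a description and no test was made of them. Of the 7, 5 had a listed transcript in each set of values and *Ciita* and *H2-DMb1* had none in any set. Over all sets together 11290 genes had a listed transcript. RNAseq was made from primary 4T1 tumors, a mammary carcinoma line grown in the mammary fat pad of its own strain, Balb/c. All mice carried EGFP expressed with Foxp3, the transcription factor of regulatory T cells (Tregs), and were 8-week-old females according to the methods given for tumor Treg work. For 12 days they received Control SMO or LFPRLR SMO, splice modulating oligomers given systemically by minipump, of which the latter is directed at the long form of the prolactin receptor (LFPRLR). The labels describe the injected 4T1 cells as treated, whereas the methods describe the mice as treated. Whole tumor RNA from 6 mice was pooled into 1 library per treatment, and Tregs sorted by Foxp3 came from other tumors, with 6 mice per treatment.

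MHC class II molecules are pairs of an alpha and a beta chain that show peptides from the endosomes to CD4+ T cells. The invariant chain, encoded by *Cd74*, fills the peptide groove until it is cut away in late endosomes, where H2-DM helps peptides to load. Transcription of these genes is driven by Ciita, a coactivator that acts through factors bound at the promoter and is induced by interferon gamma, and in tumors class II is best known from macrophages, dendritic cells and B cells. In RNA of whole tumors, fewer class II-bearing cells and less class II RNA per cell cannot be told apart.

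Before the values are read, 3 facts about the sets bear on them. The 4838 transcripts deposited for tumor Tregs had equal values under both treatment labels, and both headers give 1 and the same control file as input, so they were taken as 1 set, called the tumor Treg set, and give no treatment comparison. The whole tumor libraries listed 22481 transcripts (Control SMO) and 31908 (LFPRLR SMO), and an FPKM of 1 (a fragment count corrected for the length of the transcript and the size of the library) stood for a median read depth of 1.88 and 1.75 over a transcript, against 0.947 in the tumor Treg set. Transcripts shorter than 300 bases numbered 206, 302 and 845 in these sets and held 99.4%, 87.2% and 13.5% of the summed FPKM. With 1 library per group there is no replicate error, and ratios describe these libraries.

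The chain genes showed the most in which stretches of a gene were listed. Exon 2 of a class II beta chain gene encodes the domain that forms one wall of the peptide groove. It is shown for *H2-Ab1* and *H2-Eb1* because with Control SMO the listed transcripts of both genes broke within it. The sequences are those of the GENCODE M21 transcripts on GRCm38, both on the plus strand, at chr17:34264761-34265033 for *H2-Ab1* (273 bases) and chr17:34309591-34309860 for *H2-Eb1* (270 bases). Lower case marks bases covered by a listed Control SMO whole tumor transcript and capitals mark bases covered by none.
H2-Ab1 exon 2: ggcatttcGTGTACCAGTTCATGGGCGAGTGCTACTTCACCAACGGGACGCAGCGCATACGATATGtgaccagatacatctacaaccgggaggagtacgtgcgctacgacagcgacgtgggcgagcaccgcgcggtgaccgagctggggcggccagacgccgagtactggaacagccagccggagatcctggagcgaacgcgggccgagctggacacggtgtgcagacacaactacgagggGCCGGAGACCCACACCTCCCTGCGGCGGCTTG
H2-Eb1 exon 2: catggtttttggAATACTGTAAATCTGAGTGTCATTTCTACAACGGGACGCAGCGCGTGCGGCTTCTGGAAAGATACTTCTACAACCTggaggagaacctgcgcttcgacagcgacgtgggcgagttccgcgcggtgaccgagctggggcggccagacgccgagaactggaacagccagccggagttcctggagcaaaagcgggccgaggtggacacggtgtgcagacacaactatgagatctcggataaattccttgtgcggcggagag
The *H2-Ab1* exon had 2 uncovered stretches, of 58 bases from 34264769 to 34264826 and of 32 bases from 34265002 to 34265033, and 67.0% of the exon was listed. The *H2-Eb1* exon had 1, of 76 bases from 34309603 to 34309678, and 71.9% was listed. With LFPRLR SMO the *H2-Ab1* exon was listed whole, while the first 93 bases of the *H2-Eb1* exon, from 34309591 to 34309683, were in no transcript and 65.6% of it was listed. In the tumor Treg set both exons were listed whole. The reference genome is that of C57BL/6J and the mice were Balb/c, strains that differ in class II alleles, and the part this plays in the breaks was not tested.

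*H2-Ab1*, the beta chain of H2-A, lies on chromosome 17 from 34257689 to 34269419 on the plus strand. With Control SMO it was listed as 3 separate transcripts. The first spanned exon 1 and 8 bases of exon 2, with 2 exons, 175 bases and an FPKM of 517. The second lay inside exon 2, with 1 exon, 175 bases and an FPKM of 2201. The third ran over the last 4 exons, with 713 bases and an FPKM of 23.5. The very high FPKM thus belonged to the 2 shortest pieces, and each of the 3 exceeded the upper 95% bound deposited with it, at 24.5, 81.2 and 20.4. With LFPRLR SMO the gene was instead listed from end to end. One transcript had 6 exons, 1167 bases and an FPKM of 13.5, and the other, which began inside intron 1, had 5 exons, 1217 bases (215 of them outside annotated exons) and an FPKM of 2.88. Summed per gene, *H2-Ab1* stood at 2742 (Control SMO) and 16.4 (LFPRLR SMO) over all transcripts, a log2 ratio of -7.39. Over transcripts of at least 300 bases it stood at 23.5 and 16.4, a log2 ratio of -0.52, so nearly all of the first ratio came from the 2 short pieces. Weighting each of these longer transcripts by its bases in the gene's exons, over the longest annotated transcript of 1212 bases, gave a log2 ratio of 0.16, the opposite direction. With the short pieces left out, this weighting takes exons 1 and 2 as uncovered with Control SMO, although those pieces cover parts of both. The change of sign thus belongs to the construction of this setting.

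*H2-Eb1*, the beta chain of H2-E, lies on the plus strand of chromosome 17 from 34305867 to 34316674. With Control SMO its 2 listed transcripts were one of 2 exons and 148 bases, with an FPKM of 672 against deposited bounds of 4.22 to 15.3, and one of 5 exons and 911 bases with an FPKM of 7.92. With LFPRLR SMO there was 1 transcript, of 5 exons and 853 bases, with an FPKM of 5.51, and no piece of exon 1. As for *H2-Ab1*, the short piece carried nearly all of the Control SMO value. The gene sums were 680 and 5.51 over all transcripts, a log2 ratio of -6.95, and 7.92 and 5.51 over those of at least 300 bases, a log2 ratio of -0.52.

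*H2-Aa*, the alpha chain of H2-A, lies on the minus strand from 34282744 to 34287823 and was listed over all its exons in both tumor libraries. Its single transcript of 5 exons had 1078 bases and an FPKM of 16.1 with Control SMO, and 1069 bases and an FPKM of 13.1 with LFPRLR SMO. The log2 ratio was -0.30, with or without short transcripts, since none was listed for it. The partner chains *H2-Aa* and *H2-Ab1* therefore had widely different ratios when all transcripts were counted, -0.30 and -7.39, and closer ones, -0.30 and -0.52, when only longer ones were.

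**Figure D1:**
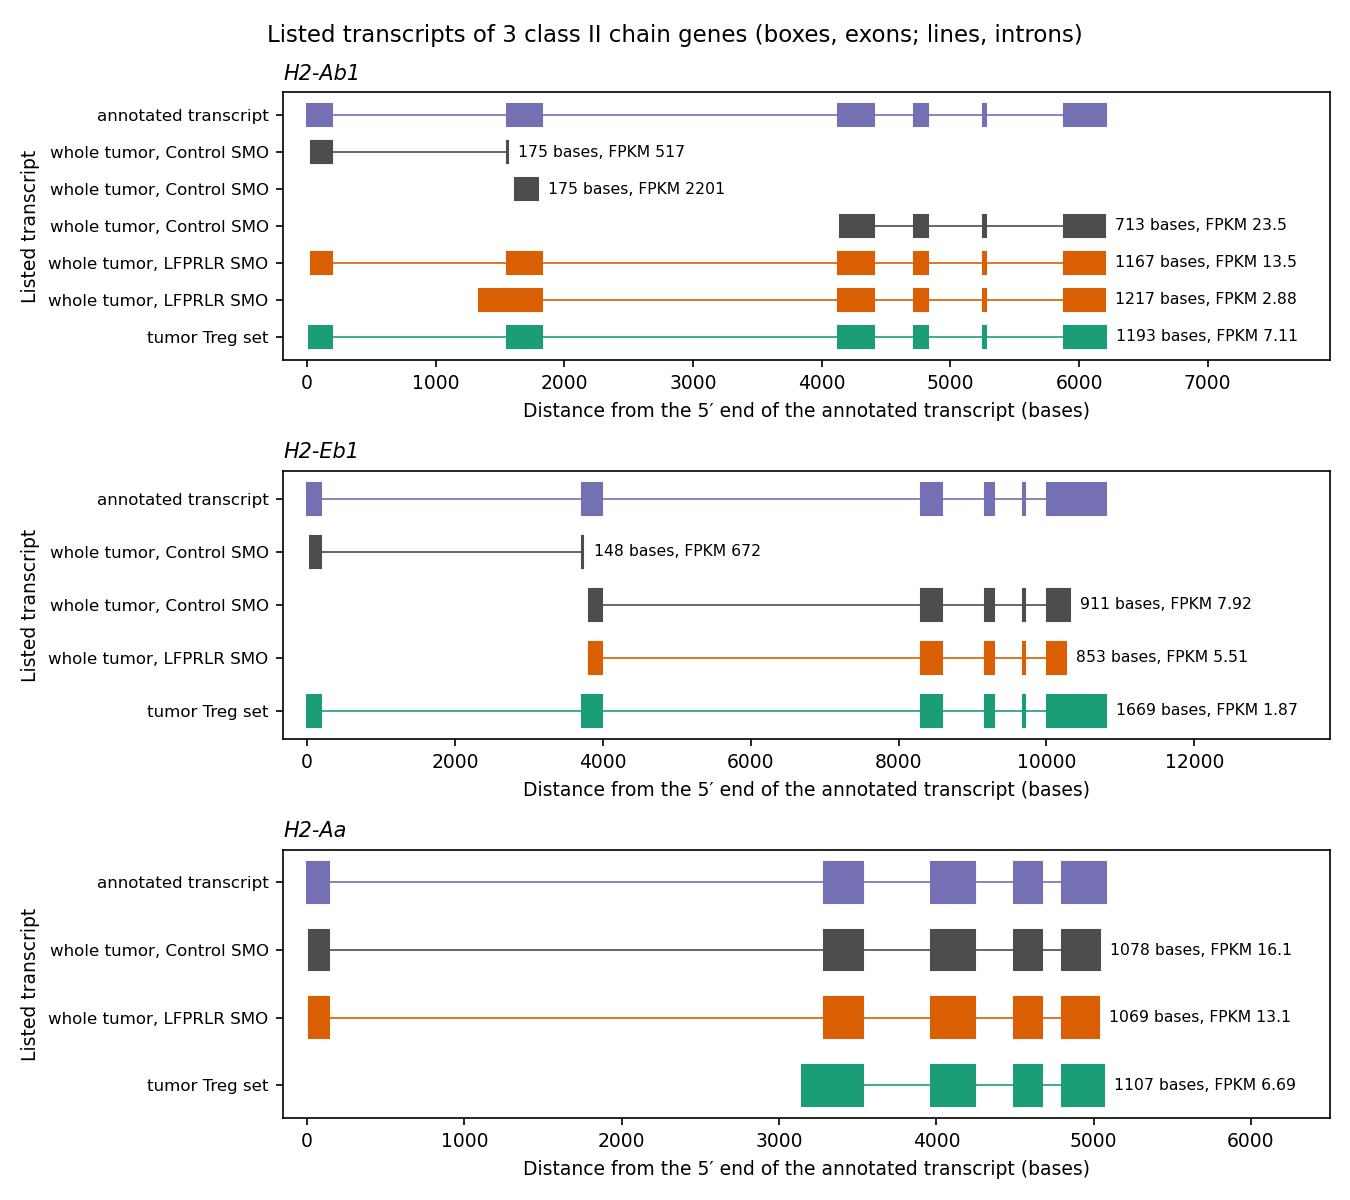
Listed transcripts of *H2-Ab1*, *H2-Eb1* and *H2-Aa* (boxes, exons, and lines, introns) in the 3 sets below 1 annotated transcript each, against the distance in bases from its 5′ end, with the length and FPKM of each. With Control SMO *H2-Ab1* was in 3 pieces and *H2-Eb1* in 2, the shortest at an FPKM of 517, 2201 and 672, while *H2-Aa* was in 1.

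Short pieces with a high FPKM were found in both tumor libraries. Of the transcripts under 300 bases, 193 of 206 (93.7%) with Control SMO and 285 of 302 (94.4%) with LFPRLR SMO had an FPKM above their own upper bound, against 5.16% and 3.89% of longer ones. Beside a longer transcript, 52 of 9482 genes (0.548%) with Control SMO and 59 of 9652 (0.611%) with LFPRLR SMO also listed a short one. The genes counted for these shares are fewer than the 9570 and 9721 that are ranked by level over longer transcripts below. *H2-Ab1* and *H2-Eb1* were among the 52 and no class II member was among the 59. Leaving out the short transcripts moved the ratio of 68 of 8660 genes (0.785%) by a factor of 2 or more, these 2 members included.

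**Figure D2:**
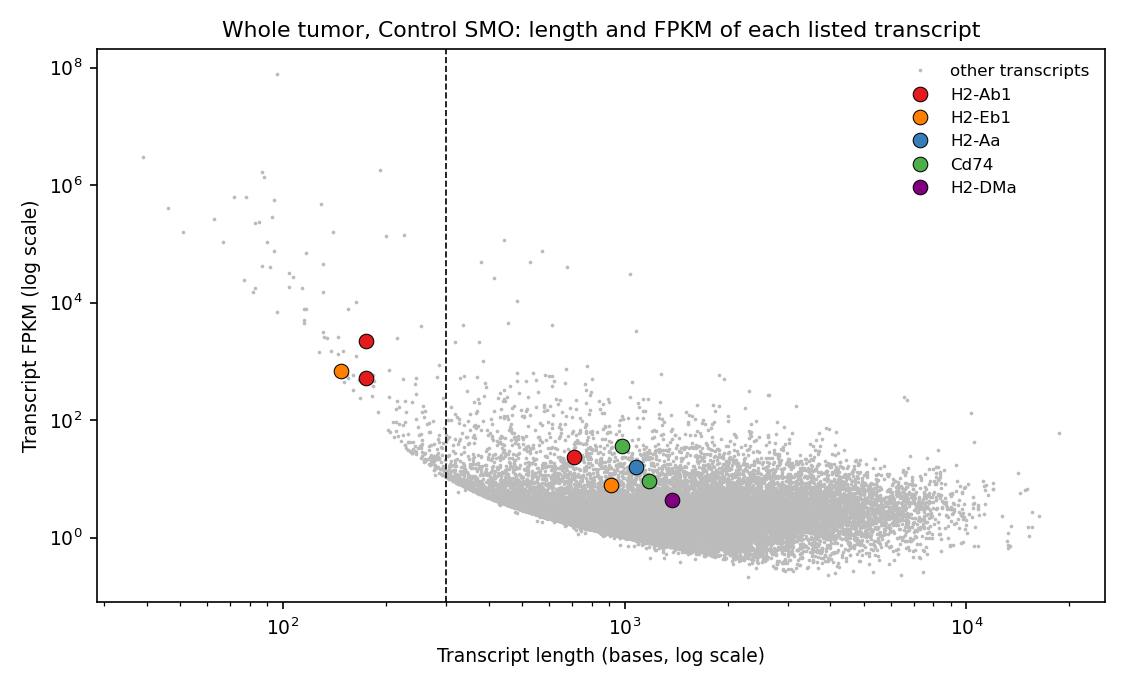
FPKM against length in bases, both on log scales, for the listed transcripts of the Control SMO whole tumor library (grey), with those of the class II genes marked. The 3 class II transcripts under 300 bases, at an FPKM of 517, 672 and 2201, sit with the other short transcripts far above the class II transcripts of 713 bases or more, which lie at or below an FPKM of 36.9.

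*Cd74*, the invariant chain, on the plus strand of chromosome 18 from 60803848 to 60812652, had the highest class II level in every set once short transcripts were left out. With Control SMO its transcripts had 8 exons, 984 bases and an FPKM of 36.9, and 9 exons, 1176 bases and an FPKM of 9.28. With LFPRLR SMO they had 1158 bases and an FPKM of 31.7, and 1350 bases and an FPKM of 5.71. The sums were 46.2 and 37.4, a log2 ratio of -0.30, equal to that of *H2-Aa* at this rounding. The Control SMO transcripts ended at 60812340 and the LFPRLR SMO ones at 60812651, so the listed 3′ end was shorter with Control SMO, and weighting by covered exon bases gave a log2 ratio of 0.02.

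The longer *Cd74* form carries an added exon of 192 bases, at 60811294 to 60811485 in every set, which encodes the thyroglobulin-like domain of the p41 form of the invariant chain, known as a cathepsin inhibitor. This form held 20.1% of the *Cd74* FPKM with Control SMO, 15.3% with LFPRLR SMO and 33.5% in the tumor Treg set. The share was thus lower with LFPRLR SMO and highest in the tumor Treg set, where another program had set the levels. For the 9-exon form the deposited bounds were 7.18 to 11.4 with Control SMO and 4.12 to 7.34 with LFPRLR SMO, which overlap.

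**Figure D3:**
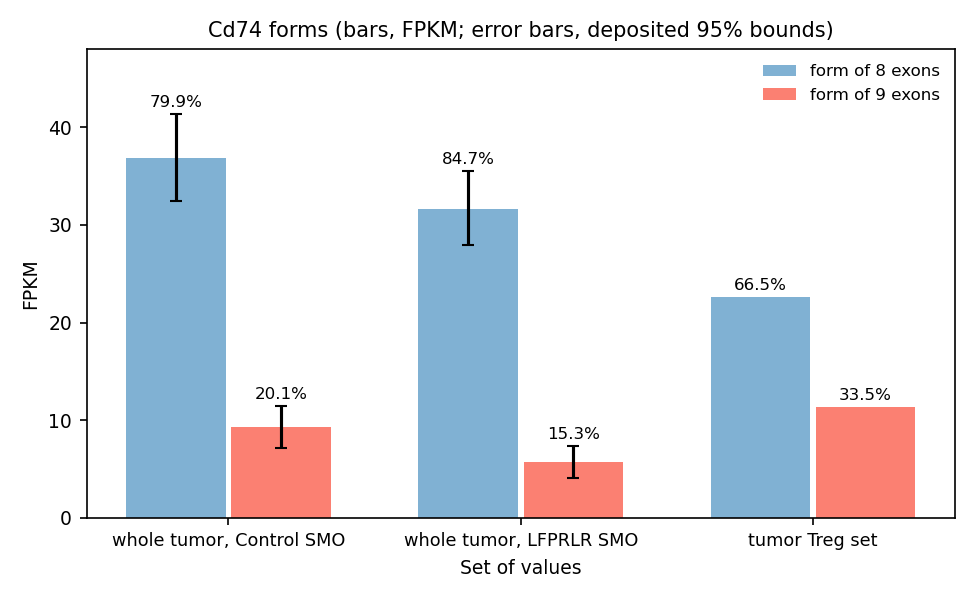
FPKM of the 8-exon and 9-exon forms of *Cd74* in the 3 sets of values, with lines for the deposited 95% bounds where given (whole tumor only), which cover no difference between mice, and labels for the share of the gene's FPKM. The 8-exon form was the higher in each set (36.9, 31.7 and 22.6), and the 9-exon form stood at 9.28, 5.71 and 11.4.

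*H2-DMa*, the alpha chain of the peptide editor H2-DM, lies on the plus strand of chromosome 17 from 34119541 to 34139101. It was listed as 1 transcript of 5 exons in each tumor library, of 1377 bases and an FPKM of 4.33 with Control SMO and of 1084 bases and an FPKM of 2.85 with LFPRLR SMO. The log2 ratio of -0.60 made it the member furthest below 0 once short transcripts were left out. Transcripts of *Brd2*, a neighboring gene on the other strand, overlapped annotated *H2-DMa* exons and were counted to *Brd2*. Their overlapping bases do enter the *H2-DMa* values that are weighted by covered exon bases.

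*H2-DMb1*, the beta chain of H2-DM, at 34153072 to 34160230, and *Ciita*, on chromosome 16 from 10480059 to 10528418, had no listed transcript in any set. The lowest FPKM listed for a transcript within 20% of the longest annotated length of *Ciita*, 6007 bases, was 0.233 with Control SMO, 0.287 with LFPRLR SMO and 0.0146 in the tumor Treg set. For *H2-DMb1*, with 1404 bases, these were 0.380, 0.492 and 0.0126. They describe what was listed, and the absence of a transcript from these lists does not show that either gene was silent. *H2-DMb2*, an adjacent beta chain gene, was listed with Control SMO only, as 6 exons and 752 bases at an FPKM of 2.67. The longest annotated *H2-DMb1* transcript and an *H2-DMb2* transcript of 1424 bases were identical at 1179 of 1255 aligned bases (93.9%). Reads of the pair may thus be split or misplaced, and the *H2-DMb2* value is uncertain.

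*H2-Ea-ps*, the alpha chain partner of *H2-Eb1*, is not a member but completes the pair. The gene is annotated as a polymorphic pseudogene because the reference strain carries a nonfunctional allele, whereas Balb/c expresses H2-E. It was listed as 4 exons in each set, with 898 bases and an FPKM of 20.4 with Control SMO, 897 bases and 13.6 with LFPRLR SMO, and 783 bases and 4.00 in the tumor Treg set. The log2 ratio of -0.59 was near that of *H2-DMa*. The Control SMO value of *H2-Ea-ps* lies above its own deposited upper bound of 19.4. *H2-Oa*, *H2-Ob* and *H2-Eb2*, the other class II genes looked for, had no listed transcript.

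Compared over the members, the LFPRLR SMO FPKM was the lower in 5 of 5 listed genes, against 53.5% of the 10527 genes that reached an FPKM of 1 in either tumor library (53.4% over transcripts of at least 300 bases, where the members' count was also 5 of 5). For whole tumor, TPM was computed here from the summed FPKM, of which transcripts under 300 bases held 99.4% (Control SMO) and 87.2% (LFPRLR SMO). It raises each log2 ratio by 4.55. In TPM *H2-Aa*, *Cd74* and *H2-DMa* were thus higher with LFPRLR SMO, but the median over all genes was also raised, to 3.54. This turn of sign belongs to the scaling and is no separate result about the members. Weighted by covered exon bases, *Cd74* stood at 0.02 and, over longer transcripts, *H2-Ab1* at 0.16, so the count of 5 does not hold in that setting. By a factor of 2, 2 of 5 were lower (16.9% of all genes) and 0 were higher (19.0%). Both were the chain genes with short pieces, and over transcripts of at least 300 bases 0 of 5 were lower by a factor of 2 (16.5%) and 0 higher (18.7%). The median log2 ratio with a pseudocount of 0.1 was -0.59 over the members and -0.07 over all genes, and -0.51 and -0.07 over the longer transcripts. For every member with a single longer transcript per library, the deposited bounds of the 2 libraries overlapped. For *H2-Aa* they were 10.9 to 16.3 and 8.87 to 14.1, for *H2-Eb1* 4.71 to 8.40 and 3.05 to 6.59, and for *H2-DMa* 2.83 to 5.33 and 1.77 to 3.83. These bounds come from the counting in each library and cover no difference between mice.

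**Figure D4:**
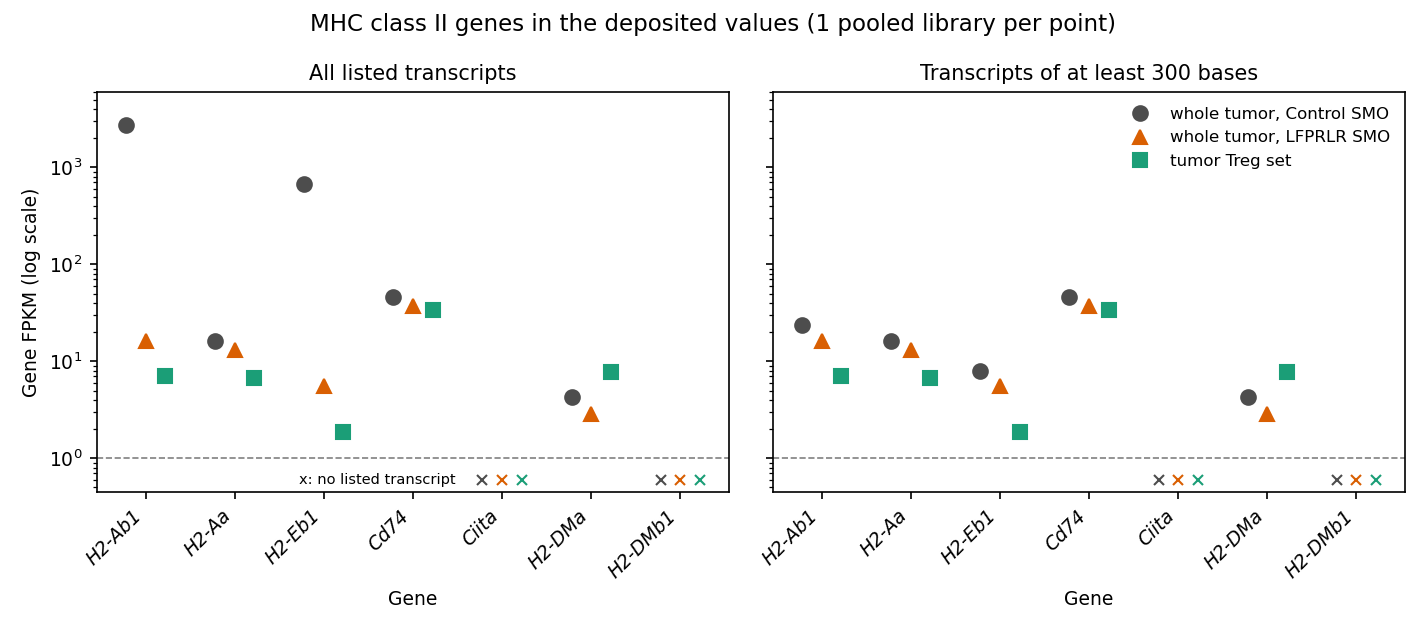
FPKM per gene (log scale) of the 7 class II genes in the 3 sets, over all listed transcripts (left) and transcripts of at least 300 bases (right), with crosses for genes with no listed transcript and a dashed line at an FPKM of 1. *H2-Ab1* and *H2-Eb1* with Control SMO fall from 2742 and 680 to 23.5 and 7.92 between the panels, and the other values are the same in both.

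Cell type markers were read beside the members, in FPKM. In TPM the log2 ratio of every gene is raised by 4.55. Of 14 macrophage markers, all listed in both tumor libraries, 13 had a lower FPKM with LFPRLR SMO, against 53.5% of all genes. By a factor of 2, 3 of 14 were lower (*C1qc*, *Fcgr1* and *Mertk*, against 16.9% of all genes). The median log2 ratio of these markers was -0.60 and their summed FPKM 511 and 320. The highest were *Apoe* at 206 and 121, *Lyz2* at 110 and 76.1, and *C1qc* at 46.2 and 22.7, and the largest ratios were those of *Mertk* (-1.31) and *Fcgr1* (-1.17). The class II ratios over longer transcripts ranged from -0.60 to -0.30. Dendritic cell markers were listed for 2 of 12 genes, *Itgax* at 3.68 and 4.17 and *Sirpa* at 6.96 and 7.06, with *Flt3*, *Zbtb46*, *Xcr1* and *Clec9a* at no listed transcript. B cell markers were listed for 3 of 9 with Control SMO and 2 of 9 with LFPRLR SMO, summed to 13.5 and 8.98 (*Igkc* at 7.83 and 7.11, *Ighm* at 2.96 and 1.87, and *Blnk* at 2.69 with Control SMO), with *Ms4a1*, *Cd79a* and *Cd79b* at no listed transcript. The 8 markers of the 4T1 epithelial cells had a median log2 ratio of 0.01, with 4 of 8 below 0, and sums of 289 and 291. Of the T cell and Treg markers only *Ikzf2* was listed, at 7.74 and 5.11. The part of the macrophage and B cell markers in the class II values was not tested.

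**Figure D5:**
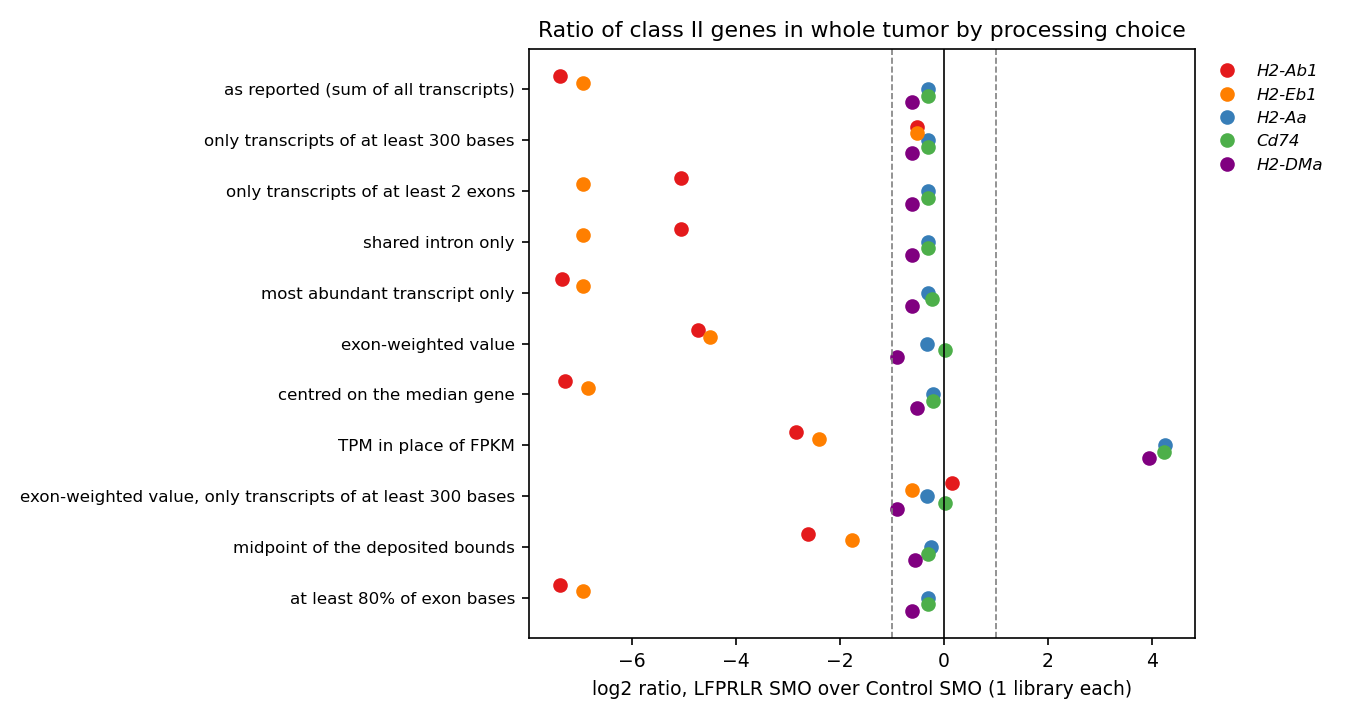
The log2 ratio of LFPRLR SMO to Control SMO FPKM of each listed member in whole tumor under several settings, with a solid line at 0 for equal values and dashed lines at a factor of 2. *H2-Ab1* and *H2-Eb1* run from -7.39 and -6.95 over all transcripts to -0.52 over those of at least 300 bases, and *H2-Aa*, *Cd74* and *H2-DMa* stand at -0.30, -0.30 and -0.60 in both, while TPM adds 4.55 to each gene and so puts these 3 above 0, and weighting longer transcripts by covered exon bases puts *H2-DMa* at -0.89, *Cd74* at 0.02 and *H2-Ab1* at 0.16.

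The order of the members by level over longer transcripts was the same in both tumor libraries. With Control SMO it was *Cd74* (above 96.4% of the 9570 genes), *H2-Ab1* (92.4%), *H2-Aa* (87.5%), *H2-Eb1* (67.3%) and *H2-DMa* (40.6%), and with LFPRLR SMO the same genes stood above 96.6%, 89.4%, 84.4%, 51.3% and 24.6% of 9721 genes. Neighbors in this order were not all apart. With Control SMO the bounds of *H2-Ab1* (13.5 to 20.4) overlapped those of *H2-Aa*, and the bounds of *H2-Eb1* overlapped those of *H2-DMa*. With LFPRLR SMO the same neighbors overlapped, with *H2-Ab1* at 11.2 to 15.9 for its larger transcript. The rank of *Cd74* was held, while the 4 others stood lower among all genes with LFPRLR SMO.

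Ratios between members within a library do not depend on how the libraries were scaled. Over longer transcripts *H2-Aa* stood at 0.349 (Control SMO) and 0.350 (LFPRLR SMO) of *Cd74* with the FPKM as listed. The listed *Cd74* 3′ end was shorter with Control SMO, and weighted by covered exon bases the log2 ratios between libraries were -0.31 for *H2-Aa* and 0.02 for *Cd74*, so the equal proportion rests on the listed FPKM. *H2-Ab1* stood at 0.508 and 0.439 of *Cd74*, *H2-Eb1* at 0.171 and 0.147, and *H2-DMa* at 0.0937 and 0.0761. Relative to *Cd74* these 3 were lower with LFPRLR SMO in listed FPKM, but for *H2-Ab1*, whose Control SMO value of 23.5 lies above its own upper bound of 20.4, the direction turned when longer transcripts were weighted by covered exon bases (0.16 against 0.02 for *Cd74*). Within pairs, *H2-Ab1* stood at 1.45 and 1.25 times *H2-Aa*, and *H2-Ea-ps* at 2.58 and 2.46 times *H2-Eb1*. The Control SMO values of *H2-Ab1* and *H2-Ea-ps* in these ratios each lie above their own upper bound.

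The tumor Treg set held class II transcripts as well, in values that a different program scaled, so they are set beside the tumor values as a description. None of 12 T cell and Treg markers was listed there, *Foxp3*, *Cd4* and *Cd3e* included, whereas 13 of 14 macrophage markers were, with a summed FPKM of 414. Of the other marker lists, 2 of 12 dendritic (*Itgax* at 15.5 and *Sirpa* at 9.66), 1 of 9 B cell (*Ighm* at 3.81) and 5 of 8 epithelial genes (sum 18.6) were listed. The label of a Treg sort therefore has no marker behind it in the listed transcripts, and the cells that the class II values come from cannot be named. The paper reports RNAseq expression of T cell genes in the sorted tumor Tregs, *Ctla4*, *Cd3e* and *Lck* among them. The listed transcripts thus differ from the values it reports, and their lack of markers does not show that the sort failed. In this set the lowest FPKM of a transcript that carried no symbol was 2.64.

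No class II gene of the tumor Treg set had a transcript under 300 bases. *Cd74* had the 8-exon form at 1223 bases and an FPKM of 22.6 and the 9-exon form at 1415 bases and 11.4, together 34.0. *H2-DMa* followed with 5 exons, 1075 bases and an FPKM of 7.68, and *H2-Ab1* with 6 exons, 1193 bases and 7.11. By listed FPKM *H2-DMa* came second among the members, where it was last in whole tumor. Weighted by covered exon bases it stood at 4.49 and *H2-Ab1* at 7.0. That weighting divides by the longest annotated transcript, of 2005 bases for *H2-DMa* and 1212 for *H2-Ab1*. For *H2-DMa* it also takes in a transcript not counted to that gene. In listed FPKM *H2-DMa* stood at 0.226 of *Cd74* against 0.0937 and 0.0761 in whole tumor. Read depth along *H2-DMa* was 3.47, 6.75, 11.1, 6.78 and 5.94 from the first to the last exon, and along *H2-Ab1* 4.25, 6.85, 6.00, 5.97, 5.5 and 9.02, so neither value rested on 1 exon.

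*H2-Aa* was listed in the tumor Treg set with 4 exons, 1107 bases and an FPKM of 6.69. The annotated exon 1 was missing, and the first listed exon, of 387 bases, reached from exon 2 into intron 1 at a depth of 1.82, against 7.46, 6.82 and 11.5 in the next exons. *H2-Eb1* had 6 exons, 1669 bases and an FPKM of 1.87. Its last exon, of 801 bases, had a depth of 0, and the depth was 1.77 over all exons but 3.41 over the first 868 bases, which would put the FPKM at 3.60. The listed *H2-Eb1* value thus averages over an annotated 3′ exon with no read depth. In the ratios to *Cd74*, *H2-Ab1*, *H2-Aa* and *H2-Eb1* stood at 0.209, 0.197 and 0.0550, each below both tumor libraries.

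The genes around class II loading and transcription were followed in lists of whole tumor FPKM, in which the first value is Control SMO and the second LFPRLR SMO. Of 10 lysosomal processing genes, all listed in both libraries, 2 were higher by a factor of 2 with LFPRLR SMO (19.0% of all genes were) and 0 were lower (16.9%), with a median log2 ratio of -0.22. *Ctss*, the cathepsin that trims the invariant chain in most class II cells, stood at 134 and 105, *Ctsb*, another cathepsin, at 50.9 and 42.6, and *Ctsl*, the cathepsin used for this step in thymic epithelium, at 81.8 and 183. *Ctsl* and *Sppl2a* (10.3 and 34.4), the membrane protease that removes the last invariant chain stub, were the 2 that were higher.

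Of 11 genes of class II transcription, 10 were listed in both libraries (all but *Rfxank*), 1 was higher by a factor of 2 and 2 were lower (19.0% and 16.9% of all genes), with a median log2 ratio of -0.09. *Nfya*, a subunit of the factor that binds the Y box, stood at 2.44 and 12.3, a log2 ratio of 2.33. *Rfx5*, part of the complex that binds the X box, stood at 3.13 and 1.29, a log2 ratio of -1.28, and *Spi1*, a myeloid factor, at 3.45 and 1.61. *Creb1*, which also binds at class II promoters, stood at 8.84 and 8.44, and *Irf1*, an interferon response factor, at 8.48 and 11.2. In the tumor Treg set only *Spi1* (7.53) and *Irf8* (3.64) of this list were listed.

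Of the interferon gamma signaling genes, 4 reached an FPKM of 1 and 0 of these were past a factor of 2 (19.0% of all genes were higher and 16.9% lower). *Ifngr1* and *Ifngr2*, the receptor chains, stood at 5.60 and 10.1 and at 8.26 and 8.55, and the kinases *Jak1* and *Jak2* at 9.29 and 9.62 and at 31.3 and 17.9. *Ifng* itself had no listed transcript, and the feedback inhibitor *Socs1* was listed with Control SMO only, at 0.909, under that minimum. The median log2 ratio over the 5 listed genes, *Socs1* included, was 0.05, against -0.07 over all genes and -0.59 for the members. The costimulatory genes that class II-bearing cells show to T cells were listed with Control SMO only, with *Cd86* at 3.28, *Cd40* at 3.05, *Icosl* at 1.57 and *Cd274* at 1.27, which makes 4 of 6 genes. Entered as 0 with LFPRLR SMO, these 4 count as lower by a factor of 2, against 16.9% of all genes. The share of all genes listed with Control SMO only was not computed, so no loss of costimulation is read from these 4. In all, 9619 genes were listed with Control SMO and 9770 with LFPRLR SMO. These values were low, where the median longer Control SMO transcript had an FPKM of 2.30. Absence from a list does not show that a gene was silent. In the tumor Treg set *Cd86* stood at 1.32.

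The genes whose pattern was most like the members were sought among protein-coding genes listed in all 3 sets, by the Euclidean distance between log2(FPKM + 0.1) profiles over the 3 sets, each centred on its own mean, and the mean profile of the 5 listed members. Over all transcripts and 2775 candidates the nearest were *Tnfrsf1a* (distance 0.102), *Rpl38*, *Gng5*, *Pdcl3* and *Ywhaq* (0.417). The mean profile over all transcripts joins unlike members. The log2 ratios of *H2-Ab1* and *H2-Eb1*, -7.39 and -6.95, came nearly all from short pieces, while *H2-Aa*, *Cd74* and *H2-DMa* stood at -0.30, -0.30 and -0.60. A gene near this mean need not be like any single member. *Tnfrsf1a*, a receptor of TNF, stood at 41.2 with Control SMO, 4.52 with LFPRLR SMO and 3.03 in the tumor Treg set. Over longer transcripts and 2494 candidates they were *Msl3* (0.0380), *Sec11a*, *Banf1*, *Arpc1b* and *Pfdn6* (0.0629). *Arpc1b*, a subunit of the actin-nucleating Arp2/3 complex, stood at 40.3, 28.0 and 20.7. No gene was in both groups of 5. A likeness over 3 points, of which the tumor Treg set was scaled by another program, is a description only.

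Promoter sequence was at hand for 4 of the 7 members (*H2-Aa*, *H2-DMa*, *H2-DMb1* and *H2-Eb1*), from 250 bases before to 50 after the RefSeq start on GRCm38.p6. The 150 bases before the start are shown for 2 chain genes, because the pathway's regulator acts through factors bound there. Capitals mark the letters CCAAT, the core of the Y box, on either strand (ATTGG on the strand shown). The first lies at chr17:34287824-34287973 on the minus strand and the second at chr17:34305717-34305866 on the plus strand.
H2-Aa promoter: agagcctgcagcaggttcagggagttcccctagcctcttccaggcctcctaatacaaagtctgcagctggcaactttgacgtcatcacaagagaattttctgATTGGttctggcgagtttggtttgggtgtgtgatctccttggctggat
H2-Eb1 promoter: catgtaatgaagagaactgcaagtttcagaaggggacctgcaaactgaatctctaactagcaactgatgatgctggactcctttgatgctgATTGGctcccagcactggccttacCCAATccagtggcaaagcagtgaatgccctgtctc
CCAAT stood 48 to 44 bases before the *H2-Aa* start, at 59 to 55 and 35 to 31 bases before the *H2-Eb1* start, at 61 to 57 for *H2-DMb1* and at 198 to 194 in 1 of the 2 *H2-DMa* windows. It occurs in 37.4% of all 32851 promoter windows. An exact match to an X box consensus, searched on both strands, stood in the *H2-DMb1* window only among the 4 genes. It lay 98 to 85 bases before the start, and 20 windows in all (0.0609%) held such a match. Near matches were not searched for, so the absence of an exact match does not show that a promoter lacks an X box. The *H2-Eb1* sequence shown holds a stretch that departs from the fixed letters of this consensus at the first base only. These matches describe the letters and do not show binding, and CCAAT stood in windows of members with a listed transcript and of *H2-DMb1*, which had none.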

How the data were processed

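Whole tumor RNA was depleted of rRNA, and the authors deposited, per the file headers and labels, transcripts assembled by Cufflinks (version not given in the sources used here) on mm10, each with an FPKM, 95% bounds, a coverage and a score. The deposited score was not used. For tumor Tregs the authors deposited StringTie 1.2.3 transcripts with coverage, FPKM and TPM, so FPKM was scaled separately in the 2 kinds of set. The submitters' processing notes also name HISAT2 2.0.4 and Cuffdiff 2.0.2. Read length, strand and read counts are not given in the sources used here.

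Transcripts were assigned to GENCODE M21 genes (GRCm38) by at least 1 shared intron or, failing that, by at least 50% of exon bases, or by the symbol in the deposited Treg file, and the FPKM was summed per gene. The exon-weighted value of a gene sums FPKM times the exon bases shared with the gene, divided by the gene's longest annotated transcript. It takes in every transcript that shares exon bases, whichever gene or strand that transcript was counted to. Ratios of members have no pseudocount. Lists and all genes used log2(FPKM + 0.1), which understates ratios of low genes, over genes that reached an FPKM of 1 in either tumor library, and a gene not listed in 1 library entered as 0 there. A factor of 2 was counted. With 1 library per group no test was made and no error can be given. The members, lists and rules were chosen with earlier results of these data known. Named genes were all members, each listed gene of lists with 5 or fewer listed and otherwise the 3 highest with Control SMO and the 2 with the largest ratios, and the 5 genes most like the members. *Spi1* and *C1qc* were also named because they passed the factor of 2. Some genes that this rule would name are not reported here. Alternatives are given with the closing observations. The counting was tested on simulated data. Computations used Python 3.11.15 with numpy 2.4.6, and figures matplotlib 3.10.9.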

Additional observations from a re-analysis of the deposited data

How the results depend on the processing

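Of 124 alternative values, 101 stayed within a factor of 1.5 and the others moved by more. The sign turned for *H2-Ab1* in 1 setting, for *H2-Aa*, *Cd74*, *H2-DMa* and the median in TPM, and for *Cd74* (to 0.02) as the exon-weighted value, with or without short transcripts. For *H2-Ab1* (-7.39 on the log2 scale over all transcripts) the ratio was -0.52 over transcripts of at least 300 bases, -5.04 over transcripts of at least 2 exons, -5.04 with a shared intron only, -4.72 as the exon-weighted value, -2.83 in TPM and -2.61 from the midpoints of the deposited bounds, and it reversed to 0.16 as the exon-weighted value over transcripts of at least 300 bases. For *H2-Eb1* (-6.95) these were -0.52 at 300 bases, -4.50 exon-weighted, -2.39 in TPM, -1.76 from the midpoints and -0.62 exon-weighted at 300 bases. In TPM *H2-Aa* stood at 4.25, *Cd74* at 4.25 and *H2-DMa* at 3.95. The median over the members was 0.67 in TPM, where that of all genes was 3.54, and -3.61 with an FPKM of at least 5, which leaves fewer members. The count of members lower by a factor of 2 fell from 2 to 0 over transcripts of at least 300 bases, also exon-weighted. In TPM, where *H2-DMa* fell under the minimum value, 2 of the 4 others were higher by a factor of 2 and 2 were lower. The share of all genes past a factor of 2 in TPM is not given, and the median over all genes, 3.54, was itself past it. No result about the members is therefore read from the TPM counts. In the tumor Treg set *H2-Aa* stood at 2.30 and *H2-DMa* at 4.49 exon-weighted, and *Cd74* at 22.6 by its most abundant transcript only. The midpoint and the exon-weighted value at 300 bases were chosen after seeing the data. The cause of these moves beyond the construction of each setting was not tested.

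No paired analysis was possible because each group was 1 library, and there was no replicate to leave out. Depth is known only as coverage. No limit on the level of a class II gene with no listed transcript, such as *Ciita*, can be given.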

Other observations

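The class I pathway, which shows peptides from the cytosol to CD8+ T cells, held another MHC gene with short pieces. All 8 class I pathway genes found in the annotation were listed in both tumor libraries, and 5 of 8 were lower with LFPRLR SMO by a factor of 2 over all transcripts and 4 of 8 over transcripts of at least 300 bases (16.9% and 16.5% of all genes), with 0 higher. The median log2 ratio was -1.49 and -0.95. *H2-K1*, a class I heavy chain, went from an FPKM of 26757 with Control SMO to 3658 with LFPRLR SMO over all transcripts, a log2 ratio of -2.87, and from 92.7 to 52.7 over those of at least 300 bases, a log2 ratio of -0.82. *H2-D1*, the other heavy chain listed, stood at 291 and 40.7, a log2 ratio of -2.84 with or without short transcripts, and how reads were split between these 2 similar genes is uncertain. *B2m*, the light chain, stood at 298 and 180. Of the genes that cut, transport and load class I peptides, *Psmb8*, *Psmb9* and *Tap1* had log2 ratios of -1.91, -1.13 and -2.07, while *Tap2* and *Tapbp* stood above 0 at 0.43 and 0.08. All of these were named after their values were seen. In TPM 4.55 is added to each of these ratios, which puts all of them above 0. The same shift applies to every gene, and the median over all genes in TPM was 3.54.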
